A study of Mus musculus with 17 samples.

Results

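The azurophil granule enzymes considered here are 5 genes, Mpo, Elane, Prtn3, Ctsg and Prss57, taken by symbol from a table of raw counts. They are 5 of the 10207 rows of that table that carry a gene symbol, and all 5 were among the 7518 genes tested after a filter on low counts. Prss57 was the member with the fewest counts, 64 in BMDM_T, 34 in BMDM_H and 0 in TAM, the groups described below. Members were set by name, with earlier results of these data known.

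Azurophil granules are the first granules that a developing neutrophil makes. They are filled at the promyelocyte stage, when the cell still divides, and the genes of their enzymes are shut down before the specific and gelatinase granules are formed. Transcripts of these genes are therefore known as markers of early granulocyte and monocyte precursors in bone marrow, while mature neutrophils carry the proteins with little of the RNA. Mpo encodes myeloperoxidase, a heme enzyme that makes hypochlorous acid. Elane, Prtn3 and Ctsg encode the serine proteases neutrophil elastase, proteinase 3 and cathepsin G, and Prss57 encodes neutrophil serine protease 4.

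RNA came from sorted myeloid cells of female BALB/c mice and was counted in 3'-end libraries, in which a read stands near the end of a transcript, so that counts are not scaled to transcript length. Cells from marrow of mice with a tumor (BMDM_T, 4 libraries, label age 8 weeks) and of healthy, untreated mice (BMDM_H, 4 libraries, label age 12 weeks) passed the same gate, CD11b+ Gr1+ F4/80low. Tumor-associated macrophages (TAM, 3 libraries, label age 8 weeks) were CD11b+ Gr1- F4/80+ cells of the tumor. Tumors were grown from 100000 4T1-luc cells, a luciferase-carrying mammary carcinoma line of BALB/c mice, placed in a mammary fat pad and taken at a size of 1 cm. The 11 libraries are those of batch 1. The other 6 libraries of the series, 4 of BMDM_H and 2 of mammary gland macrophages, belong to batch 2, where the rows do not follow the gene symbols, and were not used here. Whether replicates come from separate mice, or from cells pooled over several mice, is not in the labels. The p-values below thus reflect only how much these libraries vary, and part of that may be technical. BMDM_T and BMDM_H carry different label ages. The labels also say that tumor cells were injected at an age of 8 weeks and that mice were 8 to 13 weeks old, and the series' design text speaks of age-matched healthy mice. Whether the ages at collection differed is thus not settled, and an age difference, if there was one, cannot be told apart from the tumor.

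Total counts were 387940 to 1286844 in BMDM_H, 931278 to 1218977 in BMDM_T and 1748338 to 3747929 in TAM. Levels are given as CPM, counts brought to a common library total with TMM factors, where TMM is edgeR's trimmed mean correction for composition. The marrow cells are labelled as monocytes, but neutrophil transcripts made up much of their counts. A list of 25 genes of specific granules and later neutrophil stages summed to 149387 to 223609 CPM in BMDM_H and 183071 to 224443 CPM in BMDM_T. A list of 12 monocyte genes summed to 3156 to 5181 CPM in BMDM_H and 2129 to 2654 CPM in BMDM_T. Such sums depend on the genes listed. S100a9 alone gave the first list a mean of 52054 CPM in BMDM_H and 59245 CPM in BMDM_T. Lyz2, with means of 18083 and 12839 CPM in these groups, was not among the monocyte genes. In TAM the specific granule list summed to 1819 to 1922 CPM, and 11 macrophage genes summed to 62156 to 76833 CPM.

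In the mouse genome build mm10 (GRCm38), with the GENCODE M21 annotation, all 5 members are protein-coding genes, and 3 of them lie within 106742 bases of chromosome 10. Prss57 spans 79781474 to 79790961 on the minus strand, Prtn3 spans 79874476 to 79883174 on the plus strand, and Elane spans 79886247 to 79888215 on the plus strand, 3072 bases beyond Prtn3. Mpo lies on chromosome 11 (87793581 to 87804413, plus strand). Ctsg lies on chromosome 14 (56099881 to 56102574, minus strand), near the mast cell protease and granzyme genes. Genes on the opposite strand overlap exons of 3 members, namely Gm11505 for Mpo, Plppr3 for Prtn3 and Fstl3 for Prss57. The strand setting of the counting is not given in the sources used here, so reads of Prss57 and Fstl3, whose 3' ends overlap, cannot be told apart.

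The bases before the start sites of the members that moved together in marrow are shown to let their proximal promoters be compared. RefSeq gave a promoter window (build GRCm38.p6, 250 bases before to 50 after the start) for 4 of the 5 members, and the 250 bases before the start are printed here, 5′ to 3′ on the gene's strand. Capitals mark each GAGGAA, the purine-rich core bound by ETS factors such as PU.1. The windows are chr10:79879417-79879666 (plus strand) for Prtn3, chr10:79886062-79886311 (plus strand) for Elane, chr11:87793534-87793783 (plus strand) for Mpo and chr14:56102575-56102824 (minus strand) for Ctsg.
Prtn3: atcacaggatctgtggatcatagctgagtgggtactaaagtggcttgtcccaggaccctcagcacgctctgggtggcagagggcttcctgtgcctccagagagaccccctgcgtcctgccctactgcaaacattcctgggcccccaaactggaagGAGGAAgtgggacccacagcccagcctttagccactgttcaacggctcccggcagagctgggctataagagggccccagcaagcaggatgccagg
Elane: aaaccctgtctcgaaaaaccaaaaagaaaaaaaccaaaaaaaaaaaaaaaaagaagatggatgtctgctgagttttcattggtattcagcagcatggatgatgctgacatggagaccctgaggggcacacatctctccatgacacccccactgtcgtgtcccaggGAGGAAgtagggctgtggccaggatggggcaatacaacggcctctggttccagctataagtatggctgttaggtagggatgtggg
Mpo: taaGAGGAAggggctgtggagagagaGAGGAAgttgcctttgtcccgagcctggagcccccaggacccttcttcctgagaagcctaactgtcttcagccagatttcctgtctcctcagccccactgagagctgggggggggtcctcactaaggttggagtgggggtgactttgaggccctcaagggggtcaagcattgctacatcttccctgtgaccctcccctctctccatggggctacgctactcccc
Ctsg: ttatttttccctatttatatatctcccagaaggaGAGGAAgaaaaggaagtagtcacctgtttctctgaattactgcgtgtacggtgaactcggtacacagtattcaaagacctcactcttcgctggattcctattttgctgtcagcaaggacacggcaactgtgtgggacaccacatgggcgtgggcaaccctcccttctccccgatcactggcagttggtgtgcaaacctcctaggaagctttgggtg

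All 4 windows held GAGGAA when both strands of the full 300 bases were searched, and each match was on the gene's own strand. The same letters occurred in 28.3% of 32851 RefSeq promoter windows of that length. In Prtn3 the match began at position -95 and in Elane at -85, where -1 is the last base before the start. In Mpo matches began at -247 and -224, and in Ctsg at -216. Prtn3 and Elane shared a further layout. Each had AACGG, a form of the MYB core AACNG, at -55 in Prtn3 and at -50 in Elane, followed by TATAA at -32 and -31. TATAA occurred in 24.9% of all windows, and in Ctsg only as a reverse match at -236. AACNG occurred in 80.3% of all windows and in all 4 of the members'. TGTGGT, the RUNX core, was present in Ctsg alone (reverse strand, -79) and in 16.8% of all windows. The pattern TTNNGNAA, bound by C/EBP factors, was found in 40.7% of all windows and in none of the 4. Matches overlapped no match to another of these motifs in the members' windows. A match describes letters in the window and was not tested as a binding site.

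The comparison of BMDM_T with BMDM_H asks how marrow myeloid cells differ between mice with and without a tumor. Transcripts of 4 of the 5 members, Mpo, Elane, Prtn3 and Ctsg, rose 3.01-fold to 4.16-fold in BMDM_T, and in each of the 4 every BMDM_T library lay above every BMDM_H library. Prss57 did not pass the test. Among all 7518 genes tested, 2.82% were called higher in BMDM_T and 5.99% had every BMDM_T library above every BMDM_H library. Calls are adjusted p-values under 0.05 from edgeR's quasi-likelihood test with Benjamini-Hochberg adjustment over those genes. In bulk samples like these, fewer cells of a type and less RNA per cell cannot be told apart.

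Prtn3, the protease whose transcript was counted most often among the members, had 5503, 3895, 6774 and 6080 CPM in BMDM_T replicates 1 to 4. In BMDM_H replicates 1 to 4 it had 1355, 1313, 1525 and 1158 CPM. The lowest BMDM_T library stood well above the highest BMDM_H library, and the spread was wider in BMDM_T. The means were 5563 ± 1228 and 1338 ± 151 CPM (SD, n = 4 per group), a 4.16-fold rise. On the log2 scale the difference was 2.06 ± 0.18 (SE), with a 95% interval of 1.67 to 2.44 and an adjusted p of 5.03e-07 (edgeR). By p it ranked 8 among the 7518 genes tested. By mean CPM, Prtn3 ranked 81 of the 10207 genes with a symbol in BMDM_H and 12 in BMDM_T.

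Mpo had 1793, 1625, 1526 and 1863 CPM in the 4 BMDM_T libraries and 453, 515, 621 and 380 CPM in the 4 BMDM_H libraries. The groups did not overlap, and the BMDM_T libraries were close to one another. The means of 1702 ± 154 and 492 ± 102 CPM (SD, n = 4 per group) gave a 3.45-fold rise. The log2 difference was 1.79 ± 0.19 (SE), with a 95% interval of 1.39 to 2.19 and an adjusted p of 6.63e-06 (edgeR). By mean CPM, Mpo moved from rank 262 in BMDM_H to rank 71 in BMDM_T.

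Elane, which lies next to Prtn3, had 460, 361, 486 and 423 CPM in BMDM_T and 172, 109, 171 and 120 CPM in BMDM_H. The lowest BMDM_T library exceeded the highest BMDM_H library, and within BMDM_H replicates 1 and 3 were higher than 2 and 4. The rise was 3.01-fold, from 143 ± 33.2 to 432 ± 54.4 CPM (SD, n = 4 per group). The log2 difference was 1.59 ± 0.18 (SE; 95% interval 1.20 to 1.98, edgeR adjusted p = 1.57e-05).

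Ctsg had 628, 558, 499 and 435 CPM in BMDM_T. In BMDM_H it had 175, 195, 206 and, in replicate 4, 59.9 CPM from 23 counts. That replicate, with the lowest total of all libraries, stood below the other 3, and no BMDM_H library reached the BMDM_T range. Ctsg rose 3.23-fold, from 159 ± 67.5 to 530 ± 82.4 CPM (SD, n = 4 per group). The log2 difference was 1.69 ± 0.23 (SE; 95% interval 1.21 to 2.18, edgeR adjusted p = 0.000114), and it was 1.47 without BMDM_H replicate 4.

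Prss57 was rare, with 10.8, 16.8, 18.5 and 16.2 CPM in BMDM_T and 6.37, 12.9, 11.2 and 10.4 CPM in BMDM_H. The groups overlapped, and these levels rest on 4 to 20 counts per library. The means were 15.6 ± 3.34 and 10.2 ± 2.76 CPM (SD, n = 4 per group). The log2 difference of 0.63 ± 0.36 (SE) had a 95% interval of -0.12 to 1.39 and an adjusted p of 0.391 (edgeR). That interval holds both no change and rises as large as 1.39. Whether its difference is smaller than those of the other members was not tested. Fstl3, on the opposite strand, averaged 28.2 and 25.4 CPM in these groups (log2 difference 0.14 ± 0.25 SE, edgeR adjusted p = 0.834).

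Together the 5 transcripts took 0.824% of scaled counts in BMDM_T (8242 ± 1248 CPM, 6456 to 9304 over 4 libraries). In BMDM_H they took 0.214% (2143 ± 330 CPM, 1728 to 2535 over 4 libraries). The plot of levels in each library shows the members side by side.

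**Figure D1:**
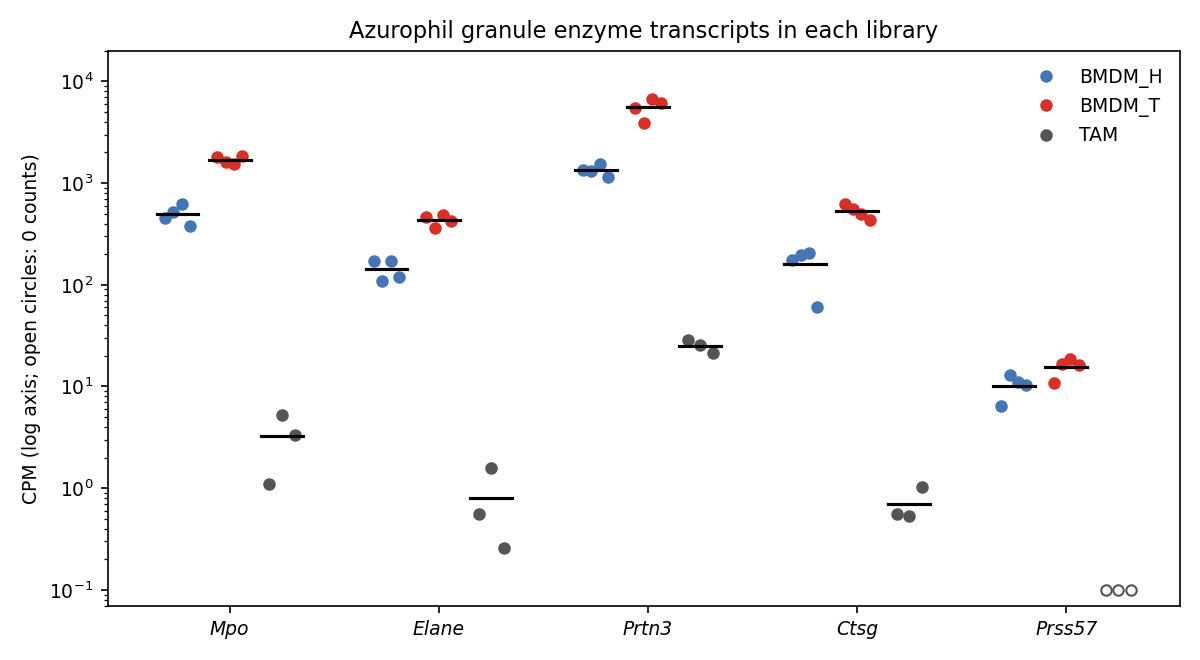
Levels of the 5 members in CPM on a log axis, 1 point per library (BMDM_H n = 4, BMDM_T n = 4, TAM n = 3), with black bars at group means and open circles, drawn at 0.1, for libraries with 0 counts. Mpo, Elane, Prtn3 and Ctsg show 3 separate bands, while the BMDM_T and BMDM_H points of Prss57 overlap and its 3 TAM libraries are at 0.

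TAM had almost none of these transcripts. All 5 members fell against BMDM_T and against BMDM_H, in comparisons that share the TAM libraries. Of all genes tested, 28.7% were called lower against BMDM_T and 28.3% against BMDM_H. Every TAM library lay below every BMDM_T library for all 5 members, as for 27.7% of all genes, and below every BMDM_H library, as for 26.4%. TAM differ from the marrow groups in tissue, gate and dissociation as well as in cell type, so these cannot be told apart.

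Prtn3 was the only member above 10 CPM in any TAM library, with 28.3, 25.5 and 21.5 CPM from 51, 48 and 83 counts. These libraries were close to one another, at a mean of 25.1 ± 3.45 CPM (SD, n = 3). The level was 223-fold lower than in BMDM_T (log2 difference -7.80 ± 0.28 SE, edgeR adjusted p = 2.10e-14) and 53.8-fold lower than in BMDM_H (-5.75 ± 0.26 SE, edgeR adjusted p = 3.13e-13).

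Mpo had 1.11, 5.30 and 3.36 CPM in the 3 TAM libraries, from 2, 10 and 13 counts. Replicate 1 was the lowest, and the counts are too few to rank the 3. Mpo was 502-fold lower than in BMDM_T (log2 difference -8.97 ± 0.33 SE, edgeR adjusted p = 2.46e-14) and 145-fold lower than in BMDM_H (-7.18 ± 0.32 SE, edgeR adjusted p = 2.94e-13).

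Elane had 1, 3 and 1 counts in TAM (0.556, 1.59 and 0.259 CPM), and Ctsg had 1, 1 and 4 counts (0.556, 0.530 and 1.03 CPM). Both were thus near the limit of detection, which is 3 counts, or 0.776 to 1.67 CPM in these libraries. From counts pooled over libraries, Elane was 644-fold lower than in BMDM_T, with an exact 95% counting interval of 276 to 1987. For Ctsg the ratio was 665, with an interval of 305 to 1813. Against BMDM_H the pooled ratios were 216 (92.1 to 669) for Elane and 220 (100.3 to 601) for Ctsg. These intervals cover counting error only. The fitted log2 difference of Elane against BMDM_T, -9.15, was -9.92 without TAM replicate 2 and -8.51 without TAM replicate 3. Against BMDM_H it was -7.56, and -8.32 and -6.91 without those libraries. The adjusted p-values against BMDM_T were 5.27e-14 for Elane and 8.11e-13 for Ctsg (edgeR).

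Prss57 had 0 counts in all 3 TAM libraries. With 3 counts over the 3 libraries put in place of 0, the pooled ratio of BMDM_T to TAM was 39.4. BMDM_T had 64 counts (edgeR adjusted p = 4.92e-08), and the exact 95% counting interval at 0 TAM counts began at 31.1. For BMDM_H, with 34 counts, the ratio was 25.0 and the interval began at 19.3 (edgeR adjusted p = 6.68e-07).

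**Figure D2:**
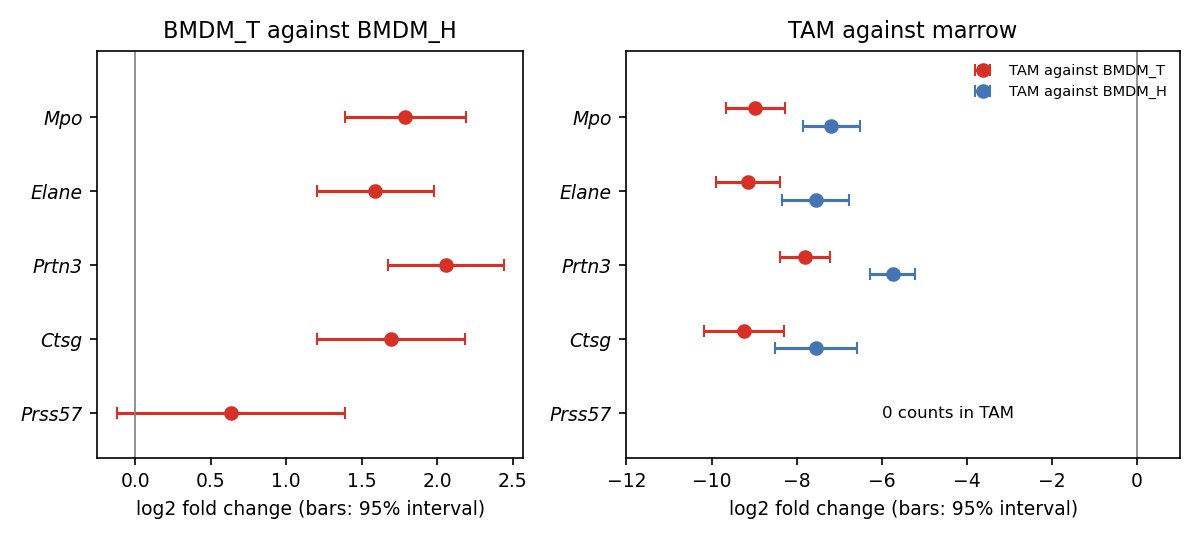
Log2 fold changes of the members with 95% intervals, with BMDM_T set against BMDM_H on the left and TAM against each marrow group on the right, from the edgeR fit over 11 libraries. Intervals of Mpo, Elane, Prtn3 and Ctsg lie above 0 on the left and between -10.2 and -5.21 on the right, and Prss57, with 0 counts in TAM, has its interval across 0 on the left and no point on the right.

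The shares of the members among themselves overlapped between the marrow groups for all but Prss57. Prtn3 made up 62.8 ± 3.02% of the 5 members' counts in BMDM_H and 66.9 ± 5.30% in BMDM_T (SD, n = 4 per group). Mpo made up 22.9 ± 1.67% and 21.0 ± 3.59%, and the ranges of both genes overlapped. The share of Prss57 was 0.295 to 0.602% in BMDM_H and 0.128 to 0.260% in BMDM_T, with no overlap. These Prss57 shares rest on 4 to 20 counts per library, and their difference was not tested. The number of Prtn3 counts per Mpo count was 2.46 to 3.05 in the BMDM_H libraries and 2.40 to 4.44 in the BMDM_T libraries. In the 3 TAM libraries it was 25.5, 4.80 and 6.38, all above the marrow range. The highest of these, in replicate 1, rests on 2 Mpo counts.

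The members' levels were then set against Ngp, a gene of specific granules that is made at a later stage of neutrophil development. Ngp itself averaged 33667 CPM in healthy and 27421 CPM in tumor-bearing mice and did not pass the test (edgeR adjusted p = 0.481). Per 1000 Ngp counts, Prtn3 had 175, 164, 238 and 233 counts in BMDM_T and 33.5, 43.2, 40.1 and 45.0 counts in BMDM_H. The ratio was higher in every BMDM_T library. Mpo gave 53.7 to 71.5 counts per 1000 Ngp counts in BMDM_T and 11.2 to 16.9 in BMDM_H.

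In TAM, where Ngp averaged 56.0 CPM, the ratio to Ngp differed by member. Prtn3 had 750, 400 and 323 counts per 1000 Ngp counts in the 3 TAM libraries, above every BMDM_T library. Mpo had 29.4, 83.3 and 50.6 counts, on both sides of the BMDM_T range. Against the whole list of specific granule genes the order changed. Prtn3 had 13.3 ± 1.48 counts per 1000 list counts in TAM (SD, n = 3), between 7.03 ± 1.23 in BMDM_H and 27.8 ± 5.86 in BMDM_T (SD, n = 4 per group). The most abundant gene of that list in TAM was Cybb, an NADPH oxidase subunit that macrophages also express, at 651 CPM.

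**Figure D3:**
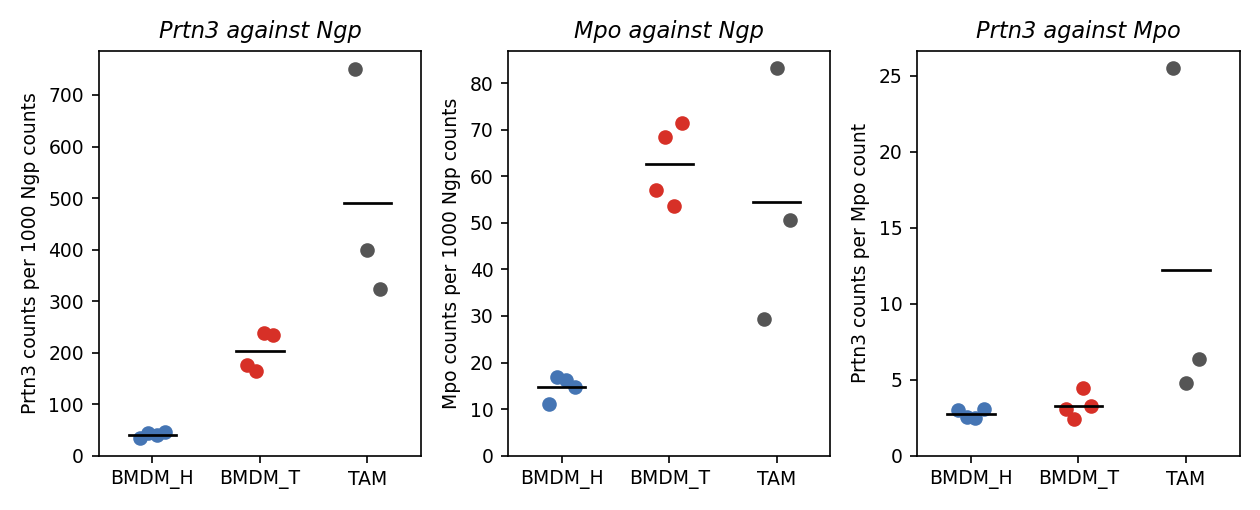
Ratios in each library, with 1 point per library and bars at group means, for Prtn3 counts per 1000 Ngp counts (left), Mpo counts per 1000 Ngp counts (middle) and Prtn3 counts per Mpo count (right). The BMDM_H points lie below the BMDM_T points in the left and middle panels, and the TAM points at 323 to 750 (left) and 4.80 to 25.5 (right) lie above both marrow groups.

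Genes that act with the azurophil enzymes were described by lists, counted and summarized by the median log2 difference. For comparison, the median over all genes tested was -0.02 between BMDM_T and BMDM_H and 0.03 between TAM and BMDM_T. Shares of genes called were 2.82% higher and 2% lower in the first comparison and 30.1% higher and 28.7% lower in the second. The list of other azurophil cargo and packaging genes had 16 members tested in BMDM_T against BMDM_H. Of these 2 rose, none fell and the median was 0.01. Ctsd, the lysosomal aspartic protease cathepsin D, rose by 1.14 ± 0.19 on the log2 scale (SE; edgeR adjusted p = 0.000732), with means of 1060 ± 115 CPM in BMDM_H and 2335 ± 479 CPM in BMDM_T (SD, n = 4 per group). Srgn encodes serglycin, the proteoglycan that holds the proteases in the granule. It rose from 517 ± 115 to 968 ± 226 CPM (log2 difference 0.90 ± 0.21 SE, edgeR adjusted p = 0.0115), but with BMDM_H replicates 3 and 4 left out its adjusted p was 0.126. Ctsc, the dipeptidyl peptidase that activates the serine proteases, averaged 126 ± 60.4 CPM in BMDM_H and 129 ± 37.8 CPM in BMDM_T (SD, n = 4 per group; edgeR adjusted p = 0.980).

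In TAM the same cargo list went the other way from the members, with 11 of 16 genes higher than in BMDM_T, 1 lower and a median of 1.31. Ctsc had 1579 CPM in TAM against 129 CPM (log2 difference 3.61 ± 0.28 SE, edgeR adjusted p = 1.10e-09). The lysosomal hydrolase Gusb was higher by 2.18 ± 0.17 (SE), and Galns, a sulfatase, was lower (-1.40 ± 0.16 SE). These lysosomal enzymes are made by macrophages as well.

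Of 8 tested protease inhibitors, edgeR called 1 lower and none higher in BMDM_T against BMDM_H, and the median was 0.39. That gene was Serpinb6a (-0.78 ± 0.22 SE, edgeR adjusted p = 0.0438), whose call was lost in 10 of 21 alternative fits, among them those without BMDM_T replicate 1, 3 or 4, BMDM_H replicate 1, 3 or 4, or TAM replicate 1. Serpinb1a, an inhibitor of elastase, proteinase 3 and cathepsin G inside the neutrophil, averaged 584 ± 165 CPM in BMDM_H and 982 ± 186 CPM in BMDM_T (SD, n = 4 per group). Its log2 difference of 0.74 ± 0.22 (SE) had an adjusted p of 0.0573 (edgeR), and it was called higher in 9 of 21 alternative fits. Its adjusted p was 0.0155 in DESeq2, 0.0389 in limma-voom, and 0.0102 with replicate number as a block, where 3 inhibitors were called higher. Over the list, DESeq2 called 2 higher and 1 lower, and limma-voom 2 higher and none lower. At an unadjusted p under 0.05 (edgeR), 4 were higher and 1 lower. In TAM against BMDM_T, 5 of the 8 fell and 2 rose. Serpinb1a (log2 difference -8.71 ± 0.39) and Wfdc21 (-8.31 ± 0.28) fell most. Slpi, the secreted inhibitor of elastase and cathepsin G, fell by 5.09 ± 0.45 (SE).

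Mpo needs heme and chaperones of the endoplasmic reticulum. None of 8 heme synthesis genes was called in BMDM_T against BMDM_H by edgeR or limma-voom, against 1 by DESeq2 and 1, Alas1, at an unadjusted p under 0.05, and the median was -0.33. Alas1, the first enzyme of heme synthesis, had 311 ± 24.9 and 207 ± 44.3 CPM (SD, n = 4 per group) in BMDM_T and BMDM_H. Its adjusted p was 0.0663 (edgeR), and 0.0323 with replicate number as a block. Of 15 endoplasmic reticulum folding genes 2 rose and none fell, with a median of 0.28. Calreticulin (Calr), a chaperone of the Mpo precursor, rose from 401 ± 86.1 to 666 ± 60.9 CPM (log2 difference 0.72 ± 0.17 SE, edgeR adjusted p = 0.0139), and Pdia3 rose by 1.06 ± 0.24 (SE; edgeR adjusted p = 0.0104). Without BMDM_H replicates 3 and 4 their adjusted p-values were 0.168 and 0.122 (edgeR). Calr alone also missed the threshold without BMDM_H replicate 1 (0.0538) or 3 (0.0544), or when scaled by total counts (0.0563). In TAM against BMDM_T 12 of the 15 rose and none fell. After thinning all libraries to the smallest total 8 rose.

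Among 20 transcription factors of myeloid development, 1 fell and none rose in BMDM_T against BMDM_H, with a median of -0.18. The gene that fell was Klf4, a monocyte factor (-1.24 ± 0.20 SE, edgeR adjusted p = 0.000572). With replicate number as a block, 1 rose, Spi1, and 2 fell, Klf4 and Gata1. Factors known to act on the members' genes did not pass the test without the block. Cebpe had 922 ± 174 and 878 ± 88.0 CPM, Gfi1 41.7 ± 4.69 and 48.4 ± 6.14 CPM, and Myb 19.7 ± 8.41 and 31.3 ± 11.0 CPM in BMDM_T and BMDM_H (SD, n = 4 per group). Their adjusted p-values were 0.901, 0.620 and 0.357 (edgeR). Cebpa had 43.7 and 63.1 CPM (edgeR adjusted p = 0.111), and Spi1, which encodes PU.1, had 709 and 487 CPM (edgeR adjusted p = 0.173, and 0.0258 with the block). In TAM against BMDM_T 7 of the 20 rose and 9 fell. Cebpe (-7.40 ± 0.32) and Gfi1 (-7.55 ± 0.48) fell, Myb had 0 counts in TAM, and Cebpa rose by 2.20 ± 0.17 (SE).

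Other serine proteases, peroxidases and peroxiredoxins of the lists were not called in marrow, where 4.82% of all genes tested were called. With so few of them tested, that says little about them. Of 6 other serine protease genes, edgeR, DESeq2 and limma-voom called none in BMDM_T against BMDM_H, and 1, Mcpt8, had an unadjusted p under 0.05. The median was 0.06. Of 9 other peroxidases and peroxiredoxins none was called by these tools, and 1, the secreted glutathione peroxidase Gpx3, had an unadjusted p under 0.05, with a median of -0.28. The glutathione peroxidase Gpx1 averaged 5180 ± 740 CPM in BMDM_T and 4774 ± 248 CPM in BMDM_H (SD, n = 4 per group; edgeR adjusted p = 0.771).

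Stage markers around the promyelocyte did not all move with the members. Of 16 early neutrophil genes 3 rose and none fell in BMDM_T against BMDM_H, with a median of 0.44. Nkg7, a granule membrane protein, rose by 1.22 ± 0.19 (SE; edgeR adjusted p = 0.000434). Hdc, which makes histamine, rose by 1.02 ± 0.23 (SE; edgeR adjusted p = 0.0110, and 0.0505 without BMDM_H replicate 2). Ms4a3 rose by 0.89 ± 0.24 (SE; edgeR adjusted p = 0.0363), a call lost in 8 of 21 alternative fits, among them those without BMDM_T replicate 1, 2 or 3 or BMDM_H replicate 3 or 4. Fcnb, Trem3 and Igsf6 of the same list did not pass the test, with log2 differences of 0.15, 0.00 and 0.02. Without BMDM_H replicates 3 and 4 the count was 1 of 16, and with replicate number as a block or by DESeq2 it was 5.

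Of 25 genes of specific granules and later stages 7 rose and 1 fell, with a median of 0.47. The number that rose was 4 without BMDM_T replicate 3, without BMDM_H replicate 2, or without BMDM_H replicates 3 and 4. Cxcr2, a chemokine receptor of mature neutrophils, rose by 1.48 ± 0.16 (SE; edgeR adjusted p = 9.00e-06). The interferon-inducible Ifitm6 rose by 1.32 ± 0.21 and the gelatinase Mmp9 by 1.15 ± 0.26 (SE), and without BMDM_H replicates 3 and 4 Mmp9 had an adjusted p of 0.0980. The gene that fell was Itgb2l (-0.72 ± 0.19 SE, edgeR adjusted p = 0.0280), a call lost when any marrow library other than BMDM_H replicate 4 was left out. The stefin family gene BC100530 rose by 3.28 ± 0.57 (SE), and limma-voom gave it an adjusted p of 0.0503. Ltf and Camp, classic specific granule cargo, did not pass the test (log2 differences -0.07 and -0.48).

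Of 17 cell cycle genes edgeR and limma-voom called none, DESeq2 called 1, and 2, Mcm3 and Ccnb1, had an unadjusted p under 0.05, with a median of 0.04. The 18 genes of that list in the table summed to 1775 to 2358 CPM in BMDM_H and 1999 to 2514 CPM in BMDM_T. Of 7 progenitor genes 1 fell, Lmo2 (-1.16 ± 0.22 SE, edgeR adjusted p = 0.00315), with a median of 0.00. After thinning to the smallest total Lmo2 had an adjusted p of 0.108 and none was called, and with replicate number as a block 2 fell, Lmo2 and Gata1. The 11 genes of that list in the table summed to 174 to 229 CPM in BMDM_H and 175 to 236 CPM in BMDM_T.

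**Figure D4:**
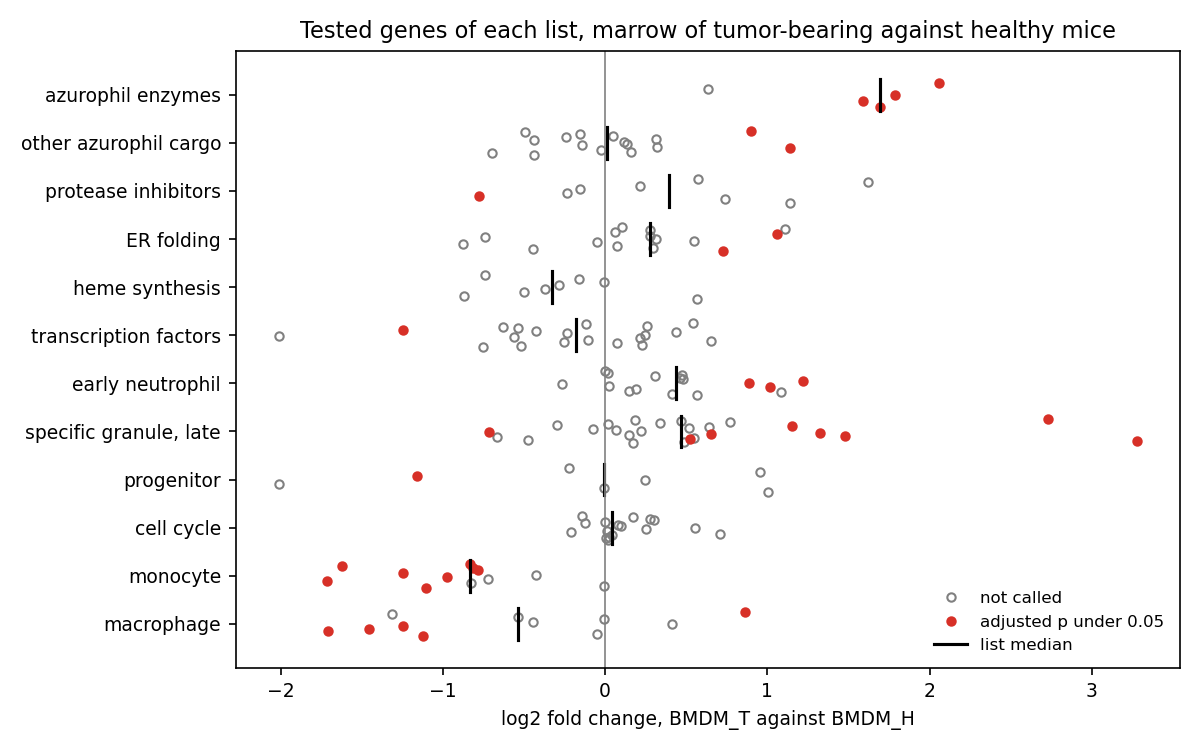
Log2 fold changes of BMDM_T against BMDM_H for the tested genes of 12 lists, 1 point per gene, with red points for adjusted p under 0.05 in the edgeR fit and black bars at list medians. The azurophil enzymes have a median of 1.69, the cargo, heme, transcription factor and cell cycle lists have medians between -0.33 and 0.04, and the monocyte list has a median of -0.83.

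Markers of other cells moved with the marrow groups too. Of 12 monocyte genes 8 fell and none rose in BMDM_T, with a median of -0.83, and 5 fell without BMDM_T replicate 3. Ccr2 fell by 1.11 ± 0.17 (SE; edgeR adjusted p = 0.000367). Of 11 macrophage genes 4 fell, the complement genes C1qa, C1qb and C1qc and the F4/80 gene Adgre1, and 1 rose, Trem2 (0.86 ± 0.23 SE, edgeR adjusted p = 0.0297). The list summed to 2827 to 3799 CPM in BMDM_H and 2300 to 2756 CPM in BMDM_T. Without BMDM_H replicate 4, 2 of the 11 fell, without BMDM_H replicates 3 and 4 only C1qb was called, and the Trem2 call was lost in 11 of 21 alternative fits, among them those without BMDM_T replicate 1, 2 or 4 or BMDM_H replicate 1, 2 or 3. Of 5 genes of the sorting antigens 2 fell, Ly6c2 (-0.79 ± 0.22 SE, edgeR adjusted p = 0.0382) and Adgre1 (-1.12 ± 0.32 SE, edgeR adjusted p = 0.0435). These 5 summed to 2051 to 3234 CPM in BMDM_H and 1453 to 1957 CPM in BMDM_T. Without BMDM_T replicate 2, 3 or 4, or BMDM_H replicate 1 or 2, neither was called. Adgre1 also missed the threshold without BMDM_H replicate 4 or TAM replicate 2, and its adjusted p with replicate number as a block was 0.0506. All 7 erythroid genes tested fell, from sums of 59.7 to 304 CPM in BMDM_H to 6.31 to 21.9 CPM in BMDM_T. Without BMDM_H replicate 2, 3 or 4 the count was 3, and the lowest count over the 21 alternatives was 1. Not every erythroid gene was tested in each alternative. Alas2 and Epor kept their calls in the 15 alternatives that tested them, and Slc4a1 in 20. Of 6 B-lineage genes 3 rose, Vpreb1 (2.07 ± 0.30 SE), Igll1 (1.86 ± 0.34 SE) and Vpreb3 (1.29 ± 0.23 SE), and the 5 tested genes other than Cd74, which macrophages also express, summed to 159 to 381 CPM in BMDM_H and 373 to 637 CPM in BMDM_T. None of the marrow lists named in this paragraph had a marker at 0. The 6 eosinophil genes in the table summed to 213 to 454 CPM in BMDM_H and 106 to 303 CPM in BMDM_T, and the 4 basophil genes to 75.5 to 194 CPM and 160 to 335 CPM. Of these, 3 eosinophil and 2 basophil genes were tested. Both lists had no call in edgeR, DESeq2 or limma-voom, and 1 gene of each list, Prg3 and Mcpt8, had an unadjusted p under 0.05. The part of such cells in the members' difference was not tested.

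In TAM, markers of other granulocytes were at or near 0 as well. The eosinophil genes Prg2, Prg3, Ear1 and Ear2 and the basophil genes Prss34, Ms4a2 and Fcer1a had 0 counts, and the lists summed to 0.517 to 1.67 CPM and 0 to 1.06 CPM. All 16 early neutrophil genes fell against BMDM_T, with a median of -3.31, as did 24 of 25 specific granule genes, with a median of -8.30. Ngp, S100a9 and other neutrophil transcripts were still counted in TAM, and their part in the Prtn3 counts there was not tested.

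Across the 8 marrow libraries the members were set side by side by their centered log2 CPM. The root mean square distance from the members' mean profile was 0.16 for Mpo, 0.21 for Elane, 0.29 for Prtn3, 0.41 for Ctsg and 0.60 for Prss57. Since each member is part of that mean, these values are a description. Among 3855 other genes with at least 30 CPM, the 8 with the most similar profile included Cxcr2 (0.22), Tspo (0.22), Dgat2 (0.23), Nkg7 (0.25), Tarm1 (0.27), Tnfsf14 (0.28) and Klra17 (0.28). Tspo encodes a mitochondrial outer membrane protein, and Dgat2 an enzyme of triglyceride synthesis. They were chosen on their marrow levels, so the likeness adds no test of a difference between BMDM_T and BMDM_H. In TAM, Tspo had 1738 ± 66.9 CPM and Dgat2 29.3 ± 1.51 CPM (SD, n = 3), while Nkg7 had 0.435 ± 0.396 CPM and Cxcr2 2.21 ± 1.35 CPM.

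None of the tested genes beside the members in the genome was called in BMDM_T against BMDM_H. The share called over all genes tested was 4.82%, so the lack of a call among so few genes says little. Of the 3 protein-coding genes on each side of each member, 9 that are not members were tested. Their log2 differences ran from -0.81 for Epx to 0.62 for Mcpt8. No neighbor was called by edgeR, DESeq2 or limma-voom, and 1, Mcpt8, had an unadjusted p under 0.05 (0.0419). Around Prtn3 and Elane, the splicing regulator Ptbp1 had 156 and 141 CPM in BMDM_T and BMDM_H (log2 difference 0.15 ± 0.15 SE), and the Mediator subunit Med16 had 36.5 and 37.0 CPM (-0.03 ± 0.24 SE). Epx, the eosinophil peroxidase gene close to Mpo, had 23.9 and 41.9 CPM (edgeR adjusted p = 0.285). Mcpt8, a basophil protease gene beside Ctsg, had 105 and 66.5 CPM (edgeR adjusted p = 0.258). In TAM against BMDM_T 7 of the 9 fell and 1, Ptbp1, rose, where 28.7% of all genes tested fell and 30.1% rose. The log2 difference was -3.19 ± 0.24 for R3hdm4 and -3.62 ± 0.34 for Fstl3 (SE).

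**Figure D5:**
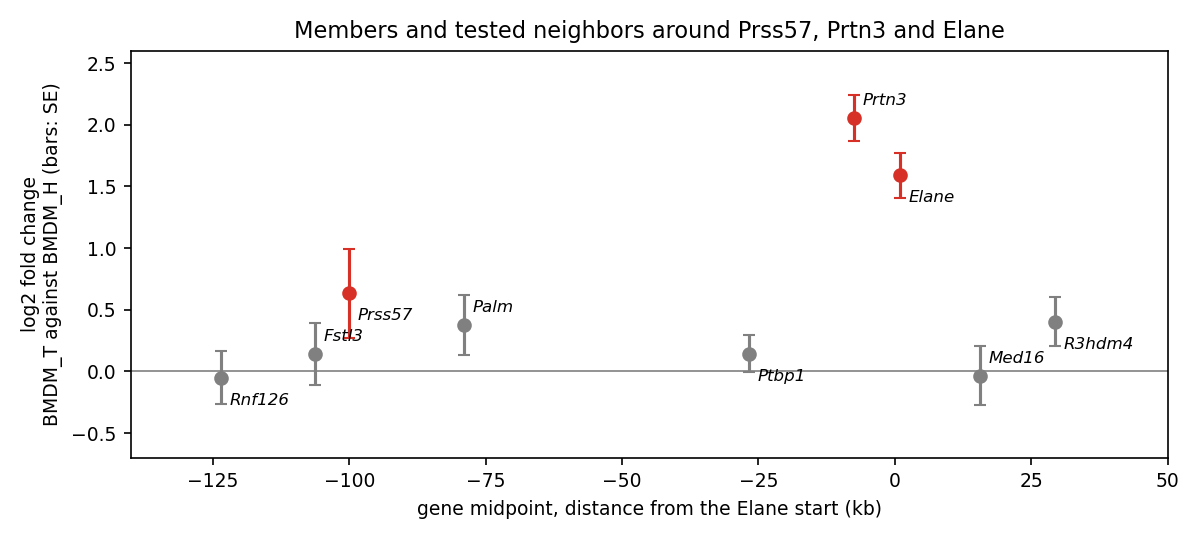
Log2 fold change of BMDM_T against BMDM_H with its SE, plotted against the distance of each gene's midpoint from the Elane start in kilobases, for the 3 members on chromosome 10 (red) and their tested neighbors (gray). Prtn3 at 2.06 and Elane at 1.59 stand above the neighboring genes, and Prss57 at 0.63 is nearer to them.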

How the data were processed

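The authors deposited raw counts per gene. The submitters' processing notes name STAR 2.4.2a, HTSeq, bcl2fastq and build mm10. The sources used here do not give the handling of molecular identifiers, the annotation, the strand setting or the gene filter. Of 24421 rows, 14214 have no symbol and hold no batch 1 count. In 66 pairs of batch 1 and batch 2 libraries the rows with a symbol had Spearman correlations of -0.02 to 0.00, against 0.92 to 0.96 within batch 1 BMDM_H, so 6 batch 2 columns were not used by gene.

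One edgeR 4.0.16 fit (R 4.3.3; filterByExpr, TMM, estimateDisp, glmQLFit, glmQLFTest) covered 11 libraries and 7518 genes. The SE is the size of the log2 difference before edgeR's shrinkage of low counts, divided by the square root of F. The intervals use the t distribution at 95% and are centered on the printed log2 differences, which are those after shrinkage. Alternatives used DESeq2 1.42.0, limma 3.58.1, other scalings and filters, thinning and left-out libraries. Simulated counts were used to check the procedure. Each simulated gene had its mean level over all 11 libraries, TAM included, and only 200 genes differed between groups. For BMDM_T against BMDM_H, 59% of simulated 2-fold changes and 94% of 4-fold changes were recovered, with 7 false calls. Simulated levels of genes that differ between marrow and TAM are thus not those of the marrow libraries.

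Members and gene lists were chosen with earlier results of these data known. Named are all 5 members, up to 4 called genes per list with the smallest p, 8 most similar genes, and 3 neighbors per side. Some genes under this rule are not reported here. Other named genes were chosen after their values were seen.

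Libraries of one group differed beyond sampling noise in all 15 pairs (chi-square per degree of freedom 2.67 to 14.6). BMDM_T and BMDM_H libraries of the same number deviated together (r = 0.22, 0.24, 0.13 and 0.13 across genes, each over the limit of 0.1). What a number stands for is not in the labels. TAM and BMDM_T gave 0.02, -0.03 and 0.08.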

Additional observations from a re-analysis of the deposited data

How the results depend on the processing

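Under 21 alternatives the 4 called members kept their calls in BMDM_T against BMDM_H. Log2 differences ran from 1.68 to 1.92 for Mpo, 1.47 to 1.72 for Elane, 1.95 to 2.19 for Prtn3 and 1.47 to 1.81 for Ctsg. Prss57 ran from 0.40 to 0.86 in 20 alternatives (adjusted p 0.331 to 0.651), and was not tested after thinning to the smallest total. With replicate number as a block the members' values were 1.81 (Mpo), 1.60 (Elane), 2.04 (Prtn3), 1.78 (Ctsg) and 0.59 (Prss57), and no member's call changed; calls over all genes were 468, against 362 without it. Those 362 calls became 238 to 409 with 1 library left out (238 without BMDM_H replicate 2), 179 without BMDM_H replicates 3 and 4, and 239 after thinning. Thinning gave 2805 calls for TAM against BMDM_T and 2751 for TAM against BMDM_H, against 4426 and 4230. It also moved the fitted values in TAM against BMDM_T to -9.74 (Mpo, -8.97 before), -10.35 (Elane, -9.15) and -7.54 (Ctsg, -9.23). The 4 members still tested kept their calls there, and Prss57 was not tested. Scaling by total counts moved the median of all genes by -0.11 (BMDM_T against BMDM_H) and 0.15 (TAM against BMDM_T). Differences near 0 changed sign: Ctsc (-0.03) was 0.020 with the block, 0.018 thinned, 0.0080 in DESeq2 and -0.25 to 0.31 with 1 library left out. Cebpe (0.073) was -0.029 by total counts and -0.017 to 0.19 with 1 library left out, and Gfi1 (-0.24) was 0.047 thinned. The causes were not tested. Depth limits Mpo, Elane, Ctsg and Prss57 in TAM, and Prss57 everywhere.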
